A study of Drosophila melanogaster with 6 samples.

Results

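The regions described here are the X chromosome peaks under 2 kb in a chromatin immunoprecipitation (ChIP-seq) study of Drosophila melanogaster at the white prepupal stage, when the larva has stopped moving and metamorphosis begins. They were chosen by position and width alone, as peaks on X whose last minus first position plus 1 was under 2000 bp. This gave 322 peaks of the 391 on X and of 9881 in the whole list. Peaks chosen the same way on 3 autosomal arms served for comparison, with 428 on 2L, 467 on 3L and 424 on 3R. The study held 3 ChIP libraries, made with a mouse monoclonal antibody listed against tango, and 3 libraries of input DNA that was not precipitated. Animals of both groups were of the strain Y cn bw sp at the same stage. All carried the marker alleles y[1], cn[1], bw[1] and sp[1]. Both groups also shared lab[R4.2], oc[R3.2] and CG33964[R4.2], with Gr22d[1], Gr22b[1] and Rh6[1], and with GstD5[1], MstProx[1] and LysC[1]. The labels give neither the sex of the animals nor any separation of tissues, and whether replicates are separate collections of animals is not stated. TCF stands in the library titles and tango in the antibody entry, so the regions are not ascribed to a protein.

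As background, tango (the fly ARNT) is a transcription factor of the bHLH-PAS family that enters the nucleus and binds DNA as the partner of tissue- or signal-specific bHLH-PAS proteins such as trachealess, single-minded, spineless and similar. Male flies carry a single X and females a pair. In males the dosage compensation complex, built on the roX RNAs, spreads along the X and raises its transcription.

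All values came from 1 list, so each peak has 1 score and 1 width and none for a single library. Replicate error is therefore unknown for every difference below. The score is the number that the authors' peak caller gave to each peak, and which statistic it is was not given in the sources used here, so it served only to rank and describe peaks within the list. No test was made of a score, a share or a position, because peaks are not replicates and because the score comes from the same peak call that defined the regions. Intervals in brackets are at the 95% level, from Wilson's method for shares and from order statistics for medians. They treat peaks as independent, which neighbouring peaks are not. Coordinates are those of FlyBase release 5. Sequences and genes at these positions were not analysed here.

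X held fewer of these peaks for its length than the 3 autosomal arms did. There were 14.4 per Mb on X, against 18.9 per Mb on 2L, 19.2 on 3L and 15.3 on 3R, counted over the span from the first to the last peak of each arm. They covered 193 kb, or 0.862% of the X span, against 1.16% of 2L, 1.19% of 3L and 0.952% of 3R. The value for 3R lay within the counting interval of X (12.8 to 16.0 per Mb) and those for 2L and 3L lay above it. Among the stronger peaks the gap was not the same: among peaks scoring in the upper 50% of the list the densities were 6.83 per Mb on X, 8.56 on 2L, 7.33 on 3L and 6.73 on 3R, so X was no longer the sparsest arm.

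The typical score was slightly higher on X. X peaks scored between 6.41 and 596.15. Their median was 21.24 (interval 19.2 to 23.06) and their quartiles were 13.36 and 43.22. The median was 19.78 on 2L (interval 18.35 to 21.84), 18.35 on 3L (17.23 to 19.48) and 19.925 on 3R (17.79 to 21.54). The interval of X overlapped that of each of these arms. X stayed above all 3 arms in median score with a width limit of 1 kb or 3 kb, without the outer 2 Mb of each arm, and after peaks with gaps under 500 bp were joined.

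Towards the top of the score range X was close to the other arms. The top 25% of the list, at scores of 46.84 or more, held 76 of the 322 X peaks, or 23.6% (interval 19.3 to 28.5%). The background was 25.2% in the whole list and 21.3% among peaks under 2 kb on 2L, 3L and 3R, so the share on X was near both. The top 5% of the list, at scores of 233.42 or more, held 14 X peaks, or 4.35% (interval 2.61 to 7.16%), beside backgrounds of 5.01% and 4.47%. The lowest 25% of the list, at scores under 14.1, held 26.7% of the X peaks, against 32.0% on 2L, 30.0% on 3L and 30.4% on 3R. The highest score was 596.15 on X, against 887.53 on 2L, 927.33 on 3L and 754.91 on 3R. X thus contributed 19.6% of all peaks under 2 kb on the 4 arms, 21.3% of those in the top 25% and 19.2% of those in the top 5%.

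**Figure D1:**
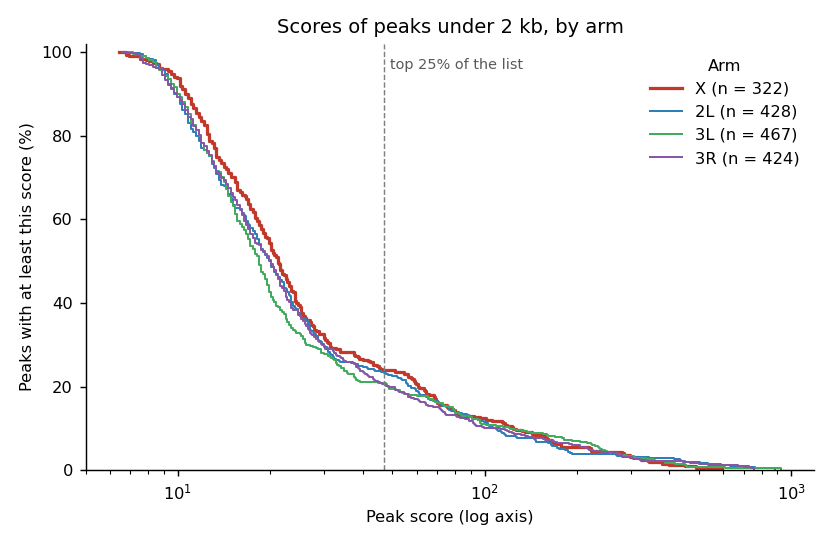
Share of peaks under 2 kb (vertical axis, percent) with at least a given score (horizontal axis, log scale) on X, 2L, 3L and 3R, from 1 peak list. The X curve lies highest around its median of 21.24 and ends at 596.15, below the highest scores of the other arms.

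The 20 highest-scoring X peaks were compact, and most had another peak within 20 kb but none within 500 bp. Their widths were 396 to 1027 bp, with 641 bp as the median, and each scored 171.58 or more. The strongest, at X 1528849 to 1529563, scored 596.15 and was 715 bp wide. Next came X 1977690 to 1978557 with a score of 489.43, X 3327485 to 3328062 with 450, X 17986711 to 17987353 with 398.09 and X 1930640 to 1931396 with 377.36. Below these were X 21152260 to 21153085 with 342.47, X 21834717 to 21835151 with 341.67, X 2031168 to 2031633 with 324.32, X 4938391 to 4938931 with 315.6 and, tied at 298.57, X 10159275 to 10159941 and X 17464869 to 17465501. Of these 20, 0 had another peak within 500 bp, 5 had one within 5 kb, and 7 had none within 20 kb. The number with none within 20 kb was 8 of the 20 highest on 2L, 7 on 3L and 14 on 3R. They spread over 13 of the 23 bins of 1 Mb along X. Of the 20, 8 lay between 1 and 5 Mb, and 3 of those 8 fell within 101 kb at X 1930640 to 2031633.

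Of the X peaks with no other peak within 20 kb, X 1977690 to 1978557 scored highest, and its nearest neighbour lay 41411 bp away. X 21152260 to 21153085 stood 155437 bp from any other peak, X 20366614 to 20367313 (score 219.32) stood 117311 bp away, and X 15446354 to 15446902 (171.58) stood 89108 bp away.

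Strong X peaks were narrower than strong peaks of the other arms. The 76 X peaks in the top 25% of the list had a median width of 554.5 bp (quartiles 460.25 and 662), against 698 bp on 2L, 651 on 3L and 659.5 on 3R. Among the 20 highest of each arm the median widths were 641 bp on X, 877.5 on 2L, 844 on 3L and 717.5 on 3R. These sets of 20 were not matched in score, with lowest scores of 171.58 on X, 186.63 on 2L, 251.42 on 3L and 219.32 on 3R. No interval was computed for the widths of strong peaks. Of the 20 on X, 1 was 1 kb or wider, against 8 on 2L, 6 on 3L and 4 on 3R. Over all peaks under 2 kb the widths of the arms were close to each other, with medians of 517 bp on X, 485.5 on 2L, 524 on 3L and 501.5 on 3R. Because width was used to choose these peaks, with the same limit on every arm, this is a description only.

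Set out by width class, the X peaks of 400 to 600 bp scored highest. Their median score was 27.74, and 38 of 86 (44.2%, interval 34.2 to 54.7%) were in the top 25% of the list. The same class reached 28.7% on 2L (20.6 to 38.6%), 28.0% on 3L (20.4 to 37.2%) and 30.5% on 3R (22.2 to 40.4%), and the lower end of the X interval overlapped each of these. Below 400 bp the median on X was 13.36 and 8.62% were in the top 25%, beside 6.10% on 2L, 3.03% on 3L and 4.32% on 3R.

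At larger widths the share on X was lower than on each other arm, with overlapping intervals. From 600 to 1000 bp, 30.6% of X peaks were in the top 25% (interval 21.1 to 42.0%), against 37.6% on 2L (28.8 to 47.4%), 35.4% on 3L (27.7 to 44.1%) and 36.1% on 3R (27.2 to 46.0%), with wide overlap. From 1 to 2 kb, 6 of 48 X peaks were (12.5%, interval 5.86 to 24.7%), against 34.8% on 2L (24.6 to 46.6%), 23.5% on 3L (15.0 to 34.9%) and 21.4% on 3R (13.4 to 32.4%), each overlapping X and that of 2L only at its edge. The highest score in that class was 281.07 on X, against 887.53 on 2L, 609.29 on 3L and 754.91 on 3R. Across peaks, which are not independent replicates and share 1 peak call, width and score had a Spearman's rho of 0.39 on X, 0.49 on 2L, 0.56 on 3L and 0.46 on 3R.

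**Figure D2:**
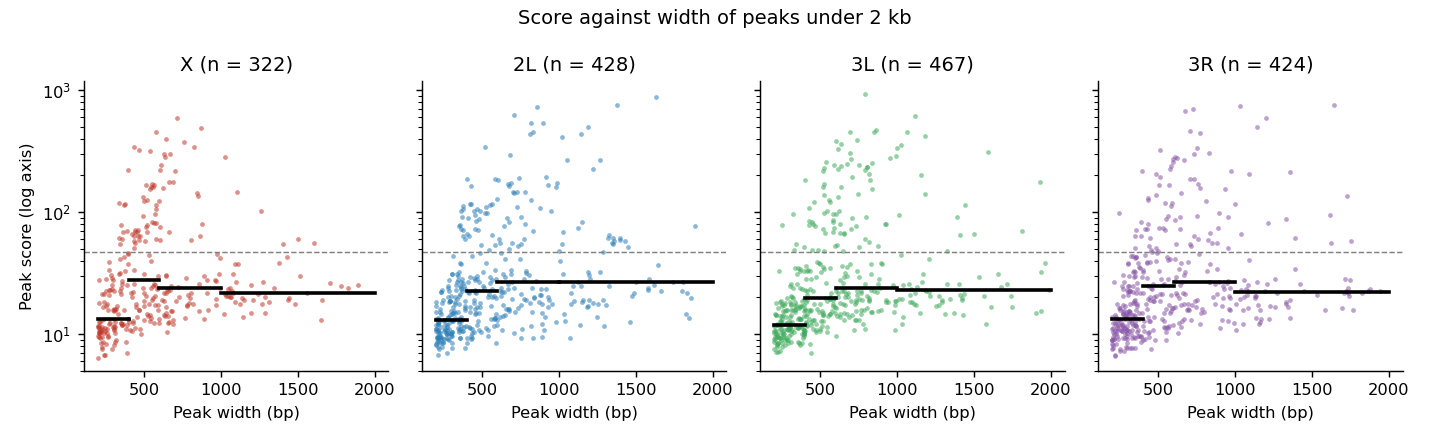
Score (vertical axis, log scale) against width in bp (horizontal axis) for each peak under 2 kb on X, 2L, 3L and 3R. Black bars mark the median score of each width class, highest on X at 400 to 600 bp (27.74), and the dashed line marks the top 25% of the list (46.84).

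Few X peaks lay near the width limit. The 3 widest inside it were X 22101242 to 22103131 (1890 bp, score 25.26), X 18648482 to 18650306 (1825 bp, 24) and X 21416050 to 21417829 (1780 bp, 24.63). The 3 narrowest outside it were X 1253777 to 1255882 (2106 bp, score 22.15), X 58479 to 60606 (2128 bp, 30.25) and X 21512930 to 21515102 (2173 bp, 20.95). At the other end, 4 X peaks had the smallest width in the set, 201 bp, with scores of 6.41 to 11.7.

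How close an X peak lay to its neighbour went with its score. Distances were measured from edge to edge to the nearest peak of any width. Of the 322 X peaks, 154 (47.8%, interval 42.4 to 53.3%) had another peak within 500 bp, and their median score was 17.79 (interval 16.7 to 19.2). The other 168 had a median of 31.465 (25.26 to 51). By distance class the medians were 17.79 under 500 bp, 22.15 from 500 bp to 5 kb, 43.22 from 5 to 20 kb and 31.115 at 20 kb or more, where 76 X peaks lay.

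Of the X peaks with a neighbour within 500 bp, 5 of 154 (3.25%, interval 1.39 to 7.37%) were in the top 25% of the list, against 71 of the other 168 (42.3%, interval 35.0 to 49.8%). The close peaks were also the wider ones, with a median of 643 bp against 434.5 bp for the others. Within the class of 400 to 600 bp the median score was 17.23 for the 31 X peaks with a close neighbour and 70.31 for the 24 with none within 20 kb. From 600 to 1000 bp these medians were 19.63 (48 peaks) and 141.315 (8 peaks), and below 400 bp they were 11.93 (40 peaks) and 22.05 (38 peaks). From 1 to 2 kb they were close on X, at 21.24 (35 peaks) and 23.62 (6 peaks), and further apart on 2L (21.095 and 60.14), 3L (20.505 and 48.08) and 3R (20.65 and 114.695).

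On the 3 autosomal arms, too, the closest class had a lower median than the farthest. With a neighbour within 500 bp the median score was 15.775 on 2L, 15.64 on 3L and 16.43 on 3R. With none within 20 kb it was 38.57 on 2L, 30.08 on 3L and 33.77 on 3R. Isolated peaks thus scored higher than crowded ones on each of the 4 arms.

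**Figure D3:**
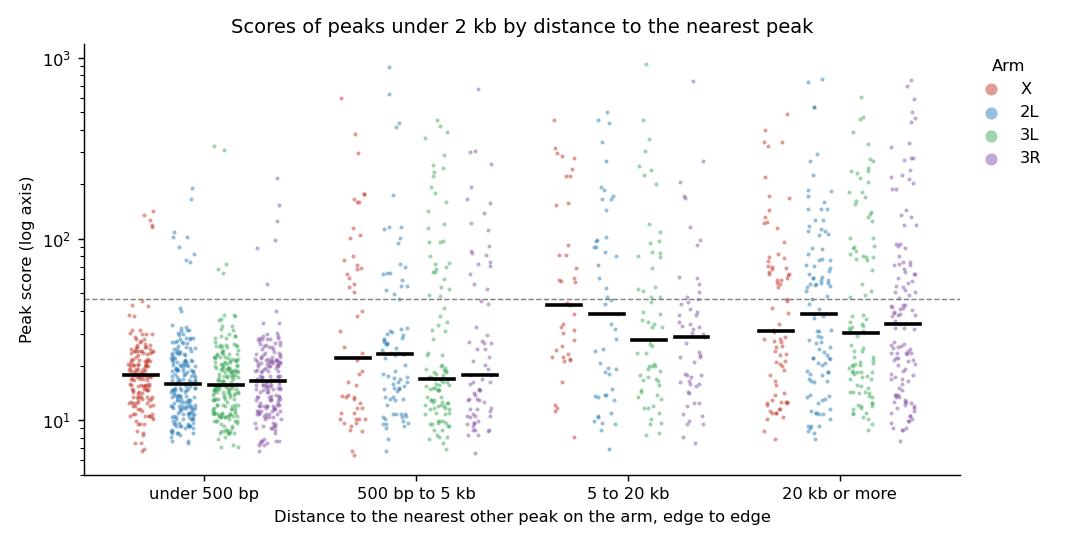
Score (vertical axis, log scale) of each peak under 2 kb by its distance to the nearest other peak of any width, on X, 2L, 3L and 3R. Black bars are medians, 17.79 on X under 500 bp and 31.115 at 20 kb or more, and the dashed line marks the top 25% of the list.

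Peaks with a neighbour of any width within 500 bp made up 47.8% on X, 45.8% on 2L, 43.5% on 3L and 41.3% on 3R. X stood further from the other arms in the share of its peaks that lay beside broad ones. A broad peak here is one of 2 kb or more. Of the X peaks under 2 kb, 85 (26.4%, interval 21.9 to 31.5%) had a broad peak within 5 kb, against 15.2% on 2L (12.1 to 18.9%), 13.5% on 3L (10.7 to 16.9%) and 15.6% on 3R (12.4 to 19.3%). Within 500 bp the shares were 19.6% on X (interval 15.6 to 24.2%), 10.7% on 2L (8.15 to 14.0%), 9.42% on 3L (7.09 to 12.4%) and 8.49% on 3R (6.20 to 11.5%). In both cases the interval of X did not overlap that of any of the 3 arms. These intervals count neighbouring peaks as independent and may be too narrow, so the lack of overlap does not settle whether X differs. The stretch X 3491695 to 3513626 alone held 7 of the 63 X peaks within 500 bp of a broad peak. Counted per broad peak, as set out below, the 500 bp interval of X overlapped those of 3L and 3R but not that of 2L. The peaks within 500 bp are part of those within 5 kb, and the 500 bp distance was chosen after the data were seen. The regions and the other limits were also chosen with earlier results of these data known. From 500 bp to 5 kb alone, X did not stand apart. The shares were 6.83% on X (interval 4.55 to 10.1%), 4.44% on 2L, 4.07% on 3L and 7.08% on 3R, with overlapping intervals.

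Other ways to delimit peaks gave other shares. After peaks with gaps under 500 bp were joined, 9.78% of the joined regions under 2 kb on X had a broad region within 5 kb, against 9.45% on 2L, 9.43% on 3L and 9.26% on 3R. This join absorbs every peak within 500 bp of a broad one, which were 63 of the 85 on X, so most of the fall is by construction. With a width limit of 1 kb the shares were 33.9% on X and 34.5% on 2L, 28.8% on 3L and 28.8% on 3R. Among peaks scoring in the upper 50% of the list they were 21.6% on X (interval 15.8 to 28.7%), 18.6% on 2L, 12.9% on 3L and 12.4% on 3R. The value for 2L then lay within the interval of X.

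X peaks with a close neighbour but no broad peak within 500 bp were not more frequent. There were 91 on X (28.3%, interval 23.6 to 33.4%), against 35.0% on 2L, 34.0% on 3L and 32.8% on 3R. Their median score was 15.38 on X, beside 13.975 on 2L, 14.61 on 3L and 15.12 on 3R.

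Seen from the broad peaks, 52 of the 69 on X (75.4%, interval 64.0 to 84.0%) had a peak under 2 kb within 500 bp. The same held for 48.6% of 72 on 2L (37.4 to 59.9%), 60.6% of 66 on 3L (48.5 to 71.5%) and 63.5% of 52 on 3R (49.9 to 75.2%). The interval of X lay apart from that of 2L and overlapped those of 3L and 3R. Within 5 kb the shares were 85.5% on X, 62.5% on 2L, 71.2% on 3L and 90.4% on 3R, so 3R was then above X. Broad peaks numbered 3.08 per Mb on X, 3.18 on 2L, 2.71 on 3L and 1.88 on 3R. X thus had about as many broad peaks per Mb as 2L, and a larger share of them had a narrow peak within 500 bp. It had more broad peaks per Mb than 3R. Peaks under 2 kb made up 82.4% of all peaks on X, against 85.6% on 2L, 87.6% on 3L and 89.1% on 3R. Broad peaks were therefore the largest share on X. How far this raised the share of narrow peaks that lay beside broad ones was not tested.

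**Figure D4:**
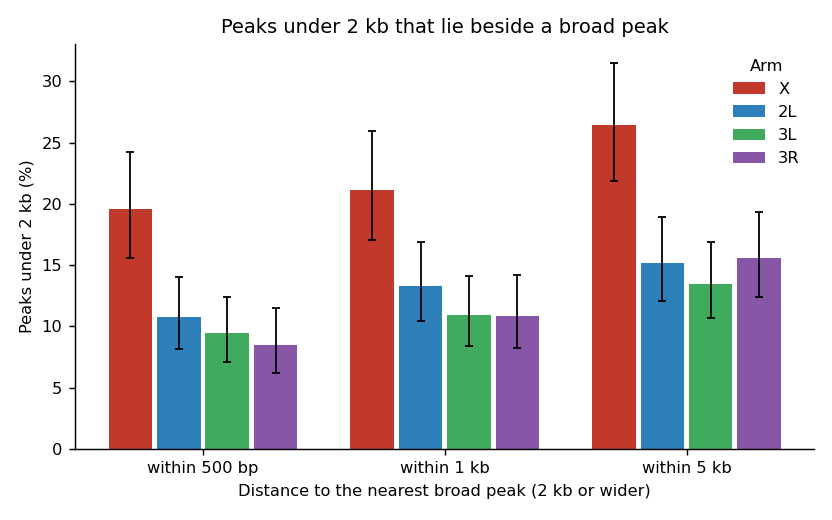
Share of peaks under 2 kb (vertical axis, percent) with a broad peak of 2 kb or more within 500 bp, 1 kb or 5 kb, on X, 2L, 3L and 3R, with 95% Wilson intervals. The share on X was 19.6% within 500 bp and 26.4% within 5 kb, above the other arms at each distance.

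The X peaks beside broad peaks were mostly the weaker of the pair. Of the 63 within 500 bp of a broad peak, 61 (96.8%) scored lower than it, against 41 of 46 on 2L, 39 of 44 on 3L and 29 of 36 on 3R. Broad peaks scored higher in general, with a median of 30.94 on X against 21.24 for the X peaks under 2 kb. For the 63 pairs on X the median ratio of the narrow to the broad score was 0.631 (quartiles 0.504 and 0.791). On the other arms the median ratio was 0.65 on 2L, 0.704 on 3L and 0.733 on 3R. These 63 X peaks scored 8.47 to 118.58 (median 20.65), and 2 of them were in the top 25% of the list. The strongest X peak of all lay a little farther out, 511 bp from a broad peak of 6372 bp with a score of 742.96.

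The next strongest X peaks within 1 kb of a broad one were X 22314702 to 22315038, with a score of 118.58 beside a broad peak of 198.02, and X 6502178 to 6502556, with 116.87 beside 178.08. After these came X 3073202 to 3074314 with 37.82 beside 44.42, and X 10161427 to 10162070 with 30.25 beside 34.49. In each of these 5 pairs the broad peak had the higher score.

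Away from broad peaks, X peaks scored slightly higher than those of the other arms. For the 237 X peaks with no broad peak within 5 kb the median score was 22.45 (interval 19.2 to 25.58), against 18.35 on 2L (16.97 to 20.65), 17.79 on 3L (16.7 to 18.92) and 19.78 on 3R (17.52 to 22.15). Of these X peaks 29.5% were in the top 25% of the list, against 24.8% on 2L, 23.5% on 3L and 22.9% on 3R. Only the median of 3L had an interval apart from that of X. Near broad peaks X was not higher. Within 5 kb of one the median was 20.07 on X (interval 18.35 to 21.84), 23.37 on 2L, 20.07 on 3L and 20.505 on 3R, with overlapping intervals.

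Joining all X peaks with gaps under 5 kb gave 201 regions that held at least 1 peak under 2 kb. Of these, 115 were a single peak, and those 115 peaks had a median score of 33.77, with 43.5% in the top 25% of the list. Another 77 regions held 2 to 4 peaks, with a median of 19.34 and 15.1% in the top 25%. The remaining 9 held 5 or more, and their 55 peaks had a median of 14.86 with 5.45% in the top 25%. The median for single peaks was 38.57 on 2L, 29.22 on 3L and 31.99 on 3R, and in regions of 5 or more it was 14.735 on 2L, 15.64 on 3L and 12.88 on 3R.

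Of the 5 X regions with most peaks under 2 kb, 4 held no such peak in the top 25% of the list. X 6456950 to 6465193 held 9 in 8.24 kb, with scores along the region of 11.93, 13.12, 13.12, 6.95, 12.4, 10.79, 12.4, 13.36 and 19.2. X 17007871 to 17013310 held 7 in 5.44 kb, with 11.24, 13.36, 14.61, 9.49, 20.07, 13.12 and 15.38. No peak of either region was broad.

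X 21408717 to 21423936 held 8 narrow peaks and 2 broad ones. Along it the scores were 13.85, 10.79, 8.27, 9.92, 14.86, 18.35 and 24.63 before the broad pair of 30.59 and 29.56, and 14.35 after it. X 3491695 to 3513626 held 7 narrow and 5 broad peaks over 21.9 kb and had a narrow peak at each outer edge and at least 1 between each broad peak and the next. Its narrow peaks scored 15.38 to 25.26 and its broad peaks 20.07 to 39.72.

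The fifth, X 2204598 to 2212807, differed from the others in that its last peak was strong. Its first 6 peaks scored 19.78, 14.86, 10.13, 12.4, 20.36 and 10.13. The last, X 2212143 to 2212807, scored 176.77 and lay 873 bp beyond the sixth.

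**Figure D5:**
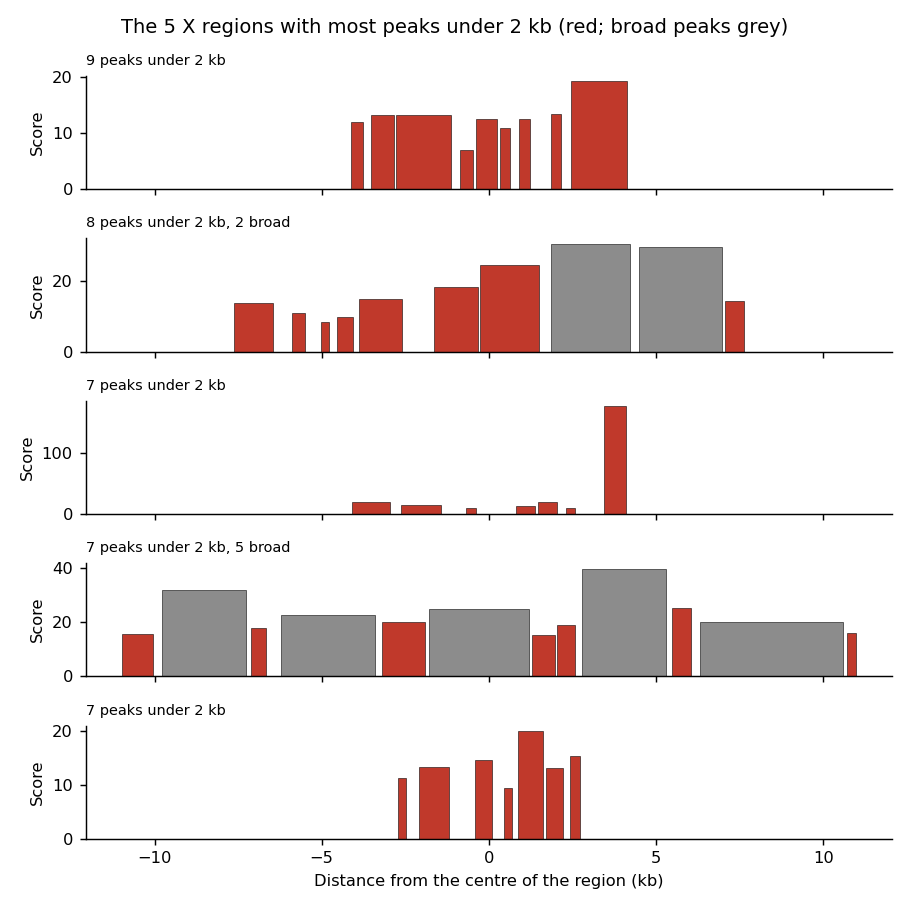
The 5 X regions with most peaks under 2 kb, with the score (vertical axis, a scale per panel) of each peak against its distance in kb from the centre of the region. Red bars are peaks under 2 kb and grey bars broad peaks, drawn to width, and in the panel with the tallest bar 1 peak of 176.77 stands beside 6 of 10.13 to 20.36.

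Along the arm, bins of 1 Mb held 4 to 30 of the X peaks, with a median of 13. The fullest were 3 to 4 Mb and 21 to 22 Mb, with 30 each. By joined regions these 2 bins held 15 and 11, so part of their number was neighbouring peaks. The bin from 18 to 19 Mb held the most strong peaks, 8 of its 19 in the top 25% of the list. The bins from 14 to 15 Mb (14 peaks) and 16 to 17 Mb (4 peaks) held none, and the highest score in them was 31.29.

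The median score of X was lower at its high end than at its low end or between, though not clearly apart from that of its low end. The first peak under 2 kb lay at X 2787 to 3203 (score 21.54) and the last at X 22404676 to 22405266 (17.23). The outer 2 Mb at the high end, which borders the heterochromatin around the centromere, held 50 peaks with a median score of 14.86 (interval 13.12 to 17.79), and 4 of them (8.00%, interval 3.15 to 18.8%) were in the top 25% of the list. The 2 Mb at the low end, towards the telomere, held 37 peaks with a median of 21.54 (16.97 to 24), and 7 of them (18.9%, interval 9.48 to 34.2%) were in the top 25%. Both intervals of the low end overlapped those of the high end. The 235 peaks between had a median of 22.76 (20.07 to 25.91), and 27.7% (interval 22.3 to 33.7%) were in the top 25%. By bins of 1 Mb the median was 13.975 from 21 to 22 Mb but 22.605 from 22 to 23 Mb. The lowest of all bins was 13.73, from 6 to 7 Mb.

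Set out in the same windows, the centromere ends of the other arms also had the lowest medians. These were 15.9 at the high end of 2L, 14.35 at the high end of 3L and 14.61 at the low end of 3R. The share in the top 25% there was 16.4% on 2L, 0 of 73 peaks on 3L (interval up to 5.00%) and 14.0% on 3R. Density was higher at the ends than between them on X as on the other arms, with 18.5 per Mb at the low end and 25 per Mb at the high end of X, against 12.8 per Mb between.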

How the data were processed

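ChIP and input DNA of white prepupae were sequenced in 3 libraries each. Per the submitters' processing notes, BWA, MACS2 and CASAVA (1.7.0.2, 1.7.0.3) are the named tools and BDGP5 is the build, and per the file headers the deposited list is of FlyBase release 5. The deposited score is a value per peak from the authors' peak caller. Its statistic, its threshold, the use of input and the pooling of replicates were not given in the sources used here. Depth per library is unknown.

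From the list were computed widths, edge-to-edge distances, joined regions, medians and shares for peaks under 2 kb on X, 2L, 3L and 3R. 2R and 4 were not compared. Intervals of density are exact Poisson intervals. The routines were tested on simulated data. The regions, classes and limits were chosen with earlier results of these data known. Items were named by rule: the 20 highest X scores, 3 peaks either side of the width limit, the 5 regions with most peaks, the 10 highest isolated peaks, the 5 highest within 1 kb of a broad peak, and the first and last. No motif was searched, for want of a release 5 genome. Columns of other samples: 0. Computation used statsmodels 0.14.6, scipy 1.17.1, matplotlib 3.10.9, pandas 2.3.3 and numpy 2.4.6 under Python 3.11.15.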

Additional observations from a re-analysis of the deposited data

How the results depend on the processing

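The alternatives were another width limit, stronger peaks only, arms without their ends, joined peaks and other distances. Among peaks scoring in the upper 50% of the list X held 153 peaks at 6.83 per Mb, with 23.5% within 500 bp of another peak and 21.6% within 5 kb of a broad one. With gaps under 500 bp joined there were 184 at 8.21 per Mb, the median score was 29.5, 40.2% were in the top 25% of the list and 9.78% had a broad neighbour. This join merges neighbouring peaks of any score and keeps the highest, and only joined regions under 2 kb were counted. With limits of 1 kb and 3 kb, which also move the limit for broad, 33.9% and 19.0% had a broad neighbour, and at 1 kb the density was 12.2 per Mb. Without the outer 2 Mb the density was 12.8 per Mb. Within 200 bp 31.1% had another peak. A broad peak lay within 1 kb of 21.1%, within 20 kb of 32.6% and, by a distance chosen after the data were seen, within 500 bp of 19.6%. The other alternative values lay within the interval of the reported value, or within 1.5 times the reported count. Apart from the fall in broad neighbours after joining, most of it by construction, the causes of these shifts were not tested. The share within 500 bp is 0 by construction after joining and was not set beside the others. No paired analysis was possible because all libraries stand behind 1 list without separate values. Leaving out a replicate could not be tried either. Depth limits could not be given.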

Other observations

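Scores recurred among the peaks. The 322 X peaks had 170 distinct scores, against 195 among 428 on 2L, 185 among 467 on 3L and 193 among 424 on 3R. On X 10.13, 12.4, 13.36, 15.64 and 24 each occurred 6 or 7 times. Such ties leave the order of weak peaks undecided.

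No gap between neighbouring peaks was under 50 bp on any of the 4 arms.

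From one X peak in the top 25% of the list to the nearest other such peak under 2 kb the median distance was 56129.5 bp, against 54306 bp on 2L, 38143.5 bp on 3L and 90382.5 bp on 3R. On X 10 of the 76 had another within 5 kb.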
